A study of Mus musculus with 4 samples.

Results

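The comparison asks how far the difference between mice labelled LASS2-/- and wild type (WT) depends on the diet, and it uses all 4 of the 4 arrays of the series. Each array measured liver RNA of male mice in 1 of 4 groups: WT on chow, LASS2-/- on chow, WT on high-fat diet (HFD) and LASS2-/- on HFD. Per the labels, chow held 10% and the high-fat diet 60% of calories from fat, and the diets began at 3 weeks of age. The labels give neither the strain nor the age at sampling, do not say how the LASS2-/- allele was made, and do not say whether an array held 1 mouse or a pool. With 1 array in each group there are 0 replicates, so every value below compares these arrays, none has an error between animals and no p-value is given.

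For each gene the diet-by-genotype difference is the log2 signal of LASS2-/- minus WT on HFD, minus the same subtraction on chow. It equals the diet response (HFD minus chow) on the arrays labelled LASS2-/- minus the diet response on the arrays labelled WT. A positive value thus means more signal on the array labelled LASS2-/- HFD than the other 3 arrays would add up to, and a negative value means less. Signals under an array's median log2 value (6.17, 6.28, 6.19 and 6.19 in the order WT chow, LASS2-/- chow, WT HFD, LASS2-/- HFD) were set to that median, the floor. Where a floored array bounds the difference from one side, the value is given as at least or at most; a negative value that is at most so much, or a positive one that is at least so much, is a lower bound on the size. Of 18193 named genes, 12493 reached the floor on at least 1 array and entered.

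LASS2 is an older symbol for Cers2. Its product, a ceramide synthase, joins very-long-chain acyl groups to sphingoid bases and is abundant in liver. Very-long-chain ceramides and sphingomyelins are components of hepatocyte membranes. A high-fat diet loads liver with triglyceride, lowers growth hormone signalling and draws in macrophages, and interferon, NRF2 and sterol responses are among the transcriptional programmes known from fatty or stressed liver.

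The targeted gene did not mark the genotype. Cers2 had log2 signals of 12.46 on the array labelled WT chow, 12.32 on LASS2-/- chow, 12.25 on WT HFD and 12.32 on LASS2-/- HFD, with a diet-by-genotype difference of 0.21. Its 1 probe set was therefore as bright on the arrays labelled LASS2-/- as on those labelled WT, and which part of the transcript it reads was not determined. Genotypes below are the labels of the arrays. Albumin (Alb), the defining hepatocyte gene, ranged from 15.02 to 15.27 over the arrays.

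Over all genes, 279 (2.23%) had a diet-by-genotype difference of at least 2-fold upwards (1 log2) and 260 (2.08%) of at least 2-fold downwards, and the median was -0.01. With the floor at the 25th percentile of each array these counts were 1155 and 1771, so the larger share of upward differences did not hold there. With the array medians made equal they were 381 and 192. For the 2 diets themselves, 2.13% of genes were at least 2-fold higher on HFD and 1.24% lower with the WT label, and 3.11% higher and 1.89% lower with the LASS2-/- label. For the genotype labels, 1.16% were at least 2-fold higher and 0.424% lower with LASS2-/- on chow, and 1.47% higher and 0.488% lower on HFD. Among the 539 genes (4.31%) with a 2-fold diet-by-genotype difference in either direction, the diet response was larger on the arrays labelled LASS2-/- in 301, smaller in 180, and opposite in 58. Opposite ones had a response of at least 1.5-fold in each genotype and of different sign. Larger and smaller were judged by size alone. They thus also hold genes whose responses differ in sign with at least 1 under 1.5-fold, such as Egr1 and Btg2. The genotype labels were at least 1.5-fold apart on HFD but not on chow in 221 of them, on chow but not on HFD in 209, and on both diets in opposite directions in 79. Dim genes supplied most of the count. With the genes split by mean signal into 4 bins of like size, 8.0% of the dimmest bin were past 2-fold, against 6.85%, 1.79% and 0.608% in the next 3 bins, and the standard deviation of the difference over genes was 0.56, 0.54, 0.37 and 0.26. Where a gene past 2-fold had further probe sets on the array, 184 of 279 such probe sets (65.9%) had the same sign, and 58 of 75 (77.3%) among genes of above-median signal. Fewer were themselves past 2-fold in the same direction, 42 of the 279 and 25 of the 75. Probe sets of a gene share the RNA sample, so this describes the measurement and not the animals.

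**Figure D1:**
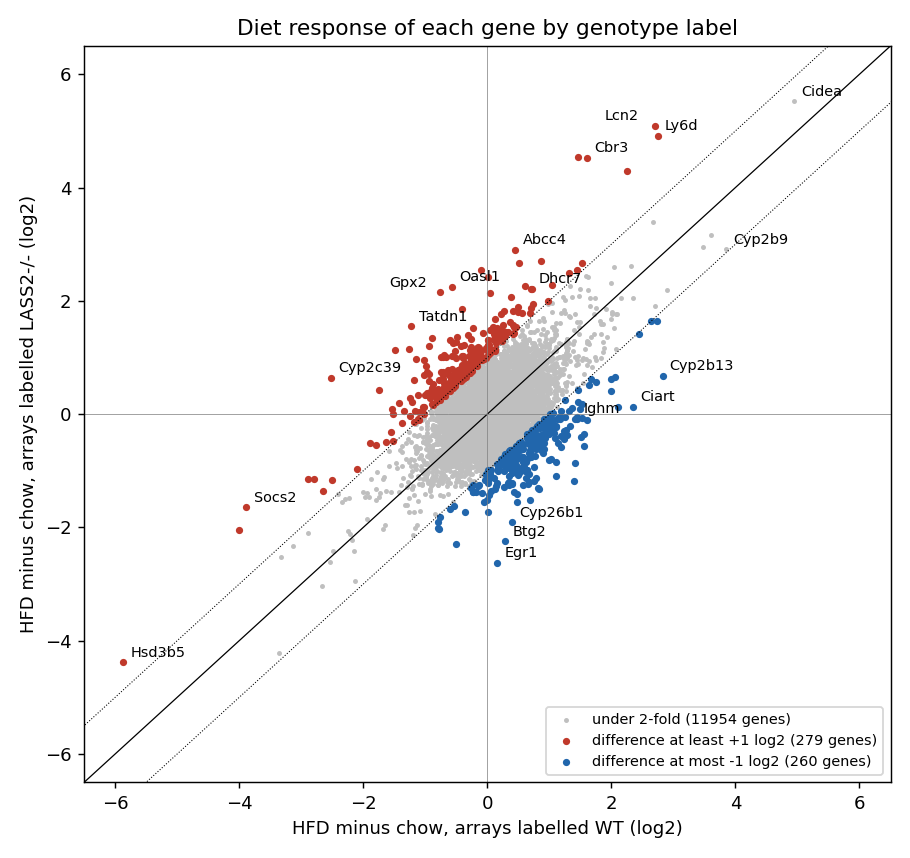
Diet response of each of 12493 genes, HFD minus chow in log2, on the arrays labelled WT (x axis) and LASS2-/- (y axis). The solid line marks equal responses and the dotted lines a 2-fold difference; 279 genes lie above the upper line (red) and 260 below the lower line (blue), with Cyp2c39, Cbr3 and Lcn2 far above and Egr1 and Btg2 far below.

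**Figure D2:**
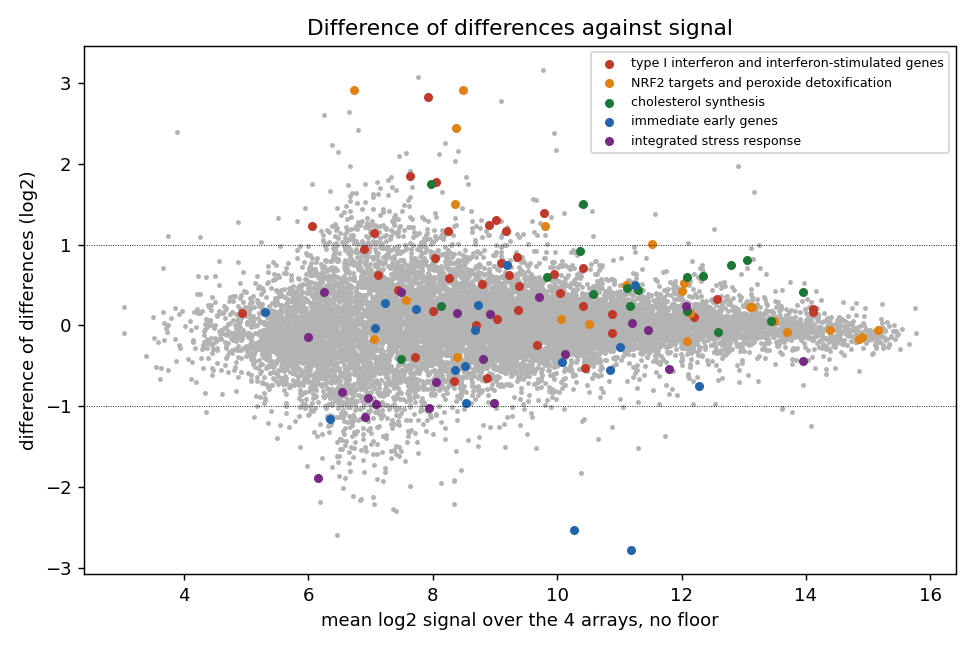
Diet-by-genotype difference (log2, y axis) of each gene against its mean log2 signal over the 4 arrays (x axis), with members of 5 gene lists in colour and dotted lines at 2-fold. The scatter of all genes narrows with signal, from a standard deviation of 0.56 in the dimmest of 4 bins to 0.26 in the brightest.

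To group the genes, 77 lists of pathway members and cell type markers were used, and 13 are described because their median lay at least 0.3 log2 from 0 or at least 20% of their measured members were past 2-fold. Of the others, 59 lists with 5 or more measured members had medians between -0.26 and 0.26, and 5 lists had fewer members. Every count of members below is to be read beside the shares over all genes. These were 2.23% past 2-fold upwards, 2.08% downwards and 49.0% above 0. Among dim genes the share past 2-fold was larger, at 8.0% either way in the dimmest bin.

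**Figure D3:**
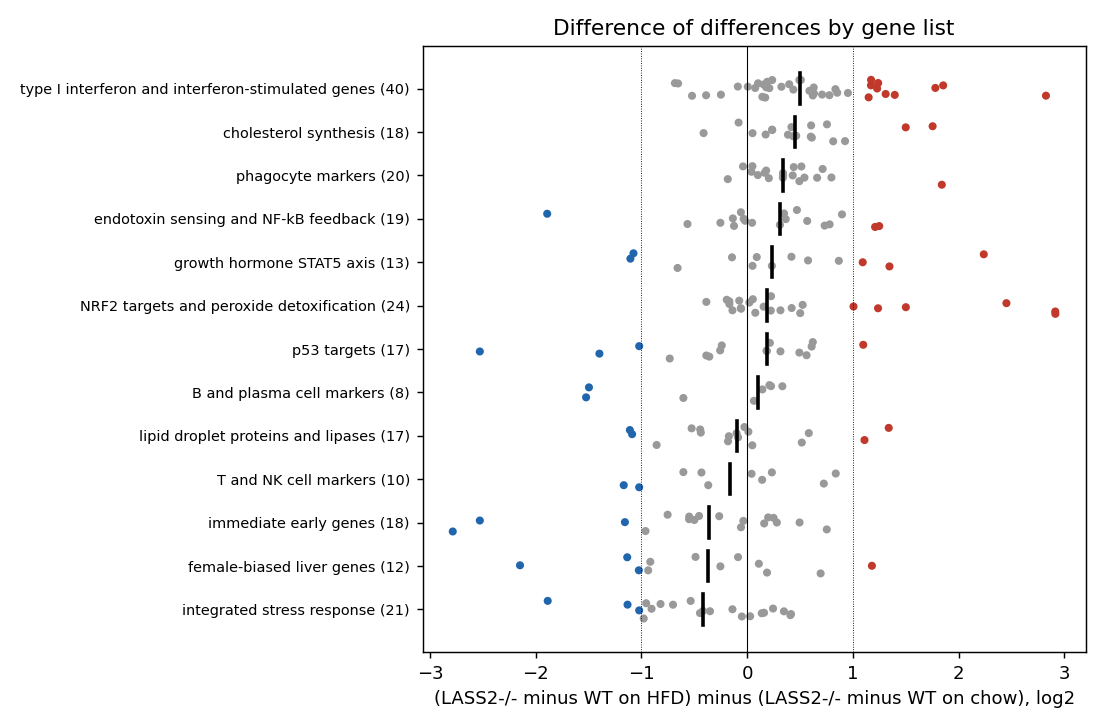
Diet-by-genotype difference (log2) of every measured member of the 13 described lists, with the number of members in brackets, the list median as a black bar, and members past 2-fold in red (up) or blue (down). Interferon-stimulated genes lie highest, at a median of 0.50, and genes of the integrated stress response lowest, at -0.42.

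Interferon-stimulated genes were higher on the array labelled LASS2-/- HFD than the other 3 arrays would add up to. These genes encode antiviral sensors and effectors that interferon receptors switch on through STAT and IRF factors. Of 40 measured members, 10 were past 2-fold upwards against 2.23% of all genes, 0 were past it downwards against 2.08%, and 34 lay above 0 against 49.0% of all genes. The list median was 0.50 and stayed between 0.44 and 0.60 under every alternative run. Median diet responses were 0.09 on the arrays labelled WT and 0.52 on those labelled LASS2-/-, and median genotype differences were 0.25 on chow and 0.80 on HFD.

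Oasl1, an oligoadenylate synthetase-like protein, had log2 signals of 7.77 on WT chow, 7.23 on LASS2-/- chow, 7.19 on WT HFD and 9.48 on LASS2-/- HFD. Only the last array stood high, and the diet-by-genotype difference was 2.83. Rsad2, which encodes the antiviral enzyme viperin, had 9.12, 9.26, 9.61 and 11.15 in the same order, a difference of 1.40 that all 3 of its probe sets shared in sign. Zbp1, a sensor of Z-form nucleic acids, had 7.41, 7.43, 6.92 and 8.79, and Ifit2, an inhibitor of viral translation, had 8.04, 7.66, 7.54 and 8.93. Both were highest on LASS2-/- HFD, with differences of 1.85 and 1.78, and in both the diet response was negative on the arrays labelled WT (-0.49 and -0.50) and positive on those labelled LASS2-/- (1.36 and 1.28). Ddx58, the RNA sensor RIG-I, differed by 1.31 and Xaf1 by 1.24. The remaining members past 2-fold, which were named after their values were seen, were Mx1 at 1.23 or more, Irf7 and Ifit1 at 1.17 each, and Oasl2 at 1.15. Members with a genotype difference of like size on both diets had small values here: Ifi27 was 0.98 higher with the LASS2-/- label on chow and 1.30 on HFD, and its diet-by-genotype difference was 0.32. The chemokine Cxcl9 had -0.52, with the labels 1.37 apart on chow and 0.85 on HFD. In all, 6 of the 40 members lay below 0, among them Gbp2 (-0.68, the lowest of the list) and Ifit3 (-0.65). Ifi27, Cxcl9, Gbp2 and Ifit3 were chosen after their values were seen, and 1 of the 2 probe sets of Cxcl9 had the other sign.

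The interferon-stimulated response element, the site read by the STAT and IRF complex, was searched as GAAA, any 2 bases and GAAA again, on both strands in windows of 300 bases around the annotated starts (RefSeq, GRCm38.p6). The letters were found in 1131 of 32851 windows of all genes (3.44%) and for 17 of the 30 measured list members that have a window. The first count is of windows and the second of genes. A gene can have several windows, so these shares are not like for like. Among the members past 2-fold, 3 of 8 with a window held them, so the letters did not set those members apart from the rest of the list. The stretches upstream of Rsad2 (chr12:26456513-26456602, minus strand) and Ifit1 (chr19:34640755-34640844, plus strand) are shown because both genes were past 2-fold, with the matched letters in capitals, 5′ to 3′ along the gene.
Rsad2: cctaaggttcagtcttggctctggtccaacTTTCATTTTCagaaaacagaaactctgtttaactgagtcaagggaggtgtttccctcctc
Ifit1: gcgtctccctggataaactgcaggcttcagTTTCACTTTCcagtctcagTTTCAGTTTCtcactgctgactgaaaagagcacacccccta
Rsad2 had 1 match and Ifit1 had 2, in each case in the reverse orientation.

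Phagocyte markers differed in the same direction. In bulk liver RNA, more cells of a type and more RNA per cell cannot be told apart. Of 20 measured markers, 18 lay above 0, against 49.0% of all genes, and the median was 0.34. Upwards 1 was past 2-fold and downwards 0, against 2.23% and 2.08% of all genes. Median genotype differences were 0.34 on chow and 0.65 on HFD. The mean log2 level of the list was 9.23 on WT chow, 9.53 on LASS2-/- chow, 9.55 on WT HFD and 10.25 on LASS2-/- HFD, and 19 of the 20 markers were above the floor on all 4 arrays. Ms4a7, a membrane protein of macrophages, had 6.67 on WT chow, the floor of 6.28 on LASS2-/- chow, 7.52 on WT HFD and 8.98 on LASS2-/- HFD, a diet-by-genotype difference of at least 1.84. Lyz2, lysozyme, had 11.29, 11.61, 11.47 and 12.44 and a difference of 0.66, and Cybb, a subunit of the phagocyte oxidase, had 9.39, 9.97, 9.78 and 11.16 and a difference of 0.80. All 3 were highest on LASS2-/- HFD. Resident Kupffer cell markers had a median of 0.14 over 12 members with 1 past 2-fold: the scavenger receptor Marco, with signals of 7.98, 9.86, 7.06 and 10.14, was high on both arrays labelled LASS2-/- and differed by 1.20. Clec4f, the C-type lectin that marks Kupffer cells, had -0.14 and was named after its value was seen. Hepatocyte markers had a median of -0.18, with 1 of 11 above 0. The part of these cell types in the interferon result was not tested.

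Among genes of endotoxin sensing and NF-kB feedback, 2 of 19 were past 2-fold upwards and 1 downwards, against 2.23% and 2.08% of all genes. The list median was 0.31. Members lay on both sides of 0, with 11 above, against 49.0% of all genes, and 8 below. Receptors were among the members with positive differences: Tlr2 had 6.74, 6.66, 7.11 and 8.28 and a difference of 1.25, and its co-receptor Cd14 had 8.42, 8.62, 8.03 and 9.44 and a difference of 1.21. Tlr4, the endotoxin receptor, had 0.90. In all 3 the array labelled LASS2-/- HFD was the highest. Nfkb2 went the other way, at -1.89 or lower, from dim signals of 6.17 (floor), 7.42, 6.83 and 6.19 (floor).

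The joint list of NRF2 targets and peroxide detoxification genes divided into a few members with large differences and many with small ones. NRF2 is the transcription factor that induces quinone reductases, glutathione and thioredoxin enzymes and multidrug exporters after oxidative or electrophilic stress. Of 24 measured members of the list, 6 were past 2-fold upwards (2.23% of all genes) and 0 downwards (2.08%). The median was 0.19, and 16 lay above 0 (49.0% of all genes). Cbr3, a carbonyl reductase, had log2 signals of 6.58 on WT chow, 7.34 on LASS2-/- chow, 8.19 on WT HFD and 11.86 on LASS2-/- HFD. HFD arrays were higher with either label, and the response was 1.61 with WT and 4.52 with LASS2-/-, a diet-by-genotype difference of 2.91. Abcc4, an exporter of conjugated bile acids and nucleotides, had 7.57, 7.51, 8.02 and 10.41, and only the array labelled LASS2-/- HFD was high, with a difference of 2.45. Gpx2, a glutathione peroxidase of epithelia, had 6.96, the floor of 6.28, 6.19 (just above the floor) and 8.43, a difference of at least 2.92. Nqo1, the quinone reductase, had 7.88, 7.39, 8.58 and 9.59 (difference 1.5), and Srxn1, sulfiredoxin, had 8.76, 9.20, 9.79 and 11.47 (difference 1.24). Pgd, of the NADPH-making pentose phosphate pathway, had 11.12, 11.02, 11.53 and 12.44 (difference 1.01). Both Srxn1 and Pgd had 4 of 4 probe sets of the same sign.

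The members with small differences included the glutathione synthesis subunits Gclc (0.23) and Gclm (0.22) and thioredoxin reductase Txnrd1 (0.50). The antioxidant response element was searched as TGACNNNGC on both strands and was found in 4071 of 32851 windows (12.4%). Counted by gene and not by window, it was found for 7 of the 21 members with a window and for 3 of the 6 past 2-fold. The stretch just upstream of a start of Abcc4 (chr14:118706220-118706274, minus strand) and that of Txnrd1 (chr10:82859084-82859173, plus strand) are given to set a member with a large difference beside one with a small difference, with matches in capitals.
Abcc4: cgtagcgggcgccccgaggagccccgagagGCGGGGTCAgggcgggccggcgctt
Txnrd1: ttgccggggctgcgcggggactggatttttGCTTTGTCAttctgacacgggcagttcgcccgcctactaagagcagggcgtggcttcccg
Each stretch held 1 match in the reverse orientation. A window at another annotated start of Abcc4, not shown, also held a match, in the forward orientation.

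Several acute-phase genes, which liver secretes in inflammation, were highest on the array labelled LASS2-/- HFD. Their list is not among the 13 described. Its median over 22 members was 0.18, with 13 members above 0 and 9 below. Upwards 3 were past 2-fold, against 2.23% of all genes, and downwards 0. Lcn2, a siderophore-binding protein, had 7.90 on WT chow, 8.10 on LASS2-/- chow, 10.60 on WT HFD and 13.19 on LASS2-/- HFD. Its diet response was 2.70 with the WT label and 5.09 with the LASS2-/- label, a difference of 2.39. Ly6d, a surface antigen placed in this list, had 6.31, 6.68, 9.06 and 11.59 and a difference of 2.17. Saa3 had 9.04, 9.33, 9.46 and 10.87 and a difference of 1.12. Saa1 (0.96), Orm2 (0.93) and Saa2 (0.84) were highest on the same array and did not reach 2-fold, and haptoglobin (Hp) had -0.02. Saa1, Saa2, Saa3, Orm2 and Hp were chosen for the text after their values were seen. Saa1 and Saa2 are near-identical copies, and their probe sets may read both.

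**Figure D4:**
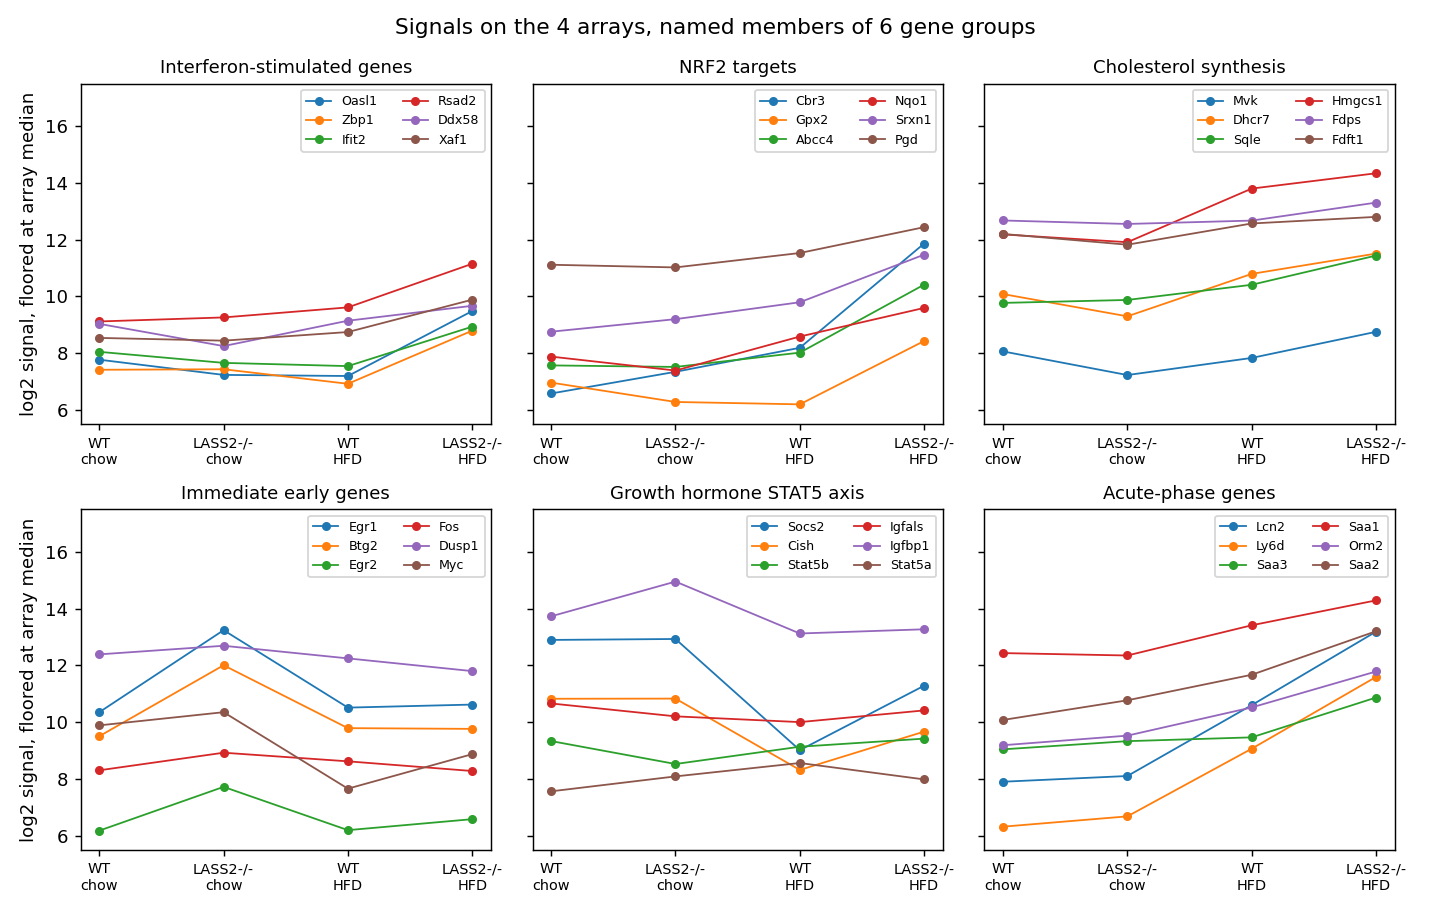
Log2 signals, floored at each array's median, on the 4 arrays for 6 members of each of 6 gene groups, joined by lines per gene. In the interferon, NRF2, cholesterol and acute-phase panels every plotted gene is highest on LASS2-/- HFD. Members for these panels were picked with their differences known, mostly large positive ones, so that shared peak does not describe the full lists. Differences below 0 were found for 6 of 40 interferon, 8 of 24 NRF2, 2 of 18 cholesterol and 9 of 22 acute-phase members. Egr1 and Btg2 are highest on LASS2-/- chow, and Socs2 and Cish are lowest on WT HFD.

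Cholesterol synthesis genes had a larger diet response with the LASS2-/- label. SREBP2 drives these enzymes when membrane sterol is low. Of 18 measured members, all above the floor on the 4 arrays, 16 lay above 0, against 49.0% of all genes. Upwards 2 were past 2-fold and downwards 0, against 2.23% and 2.08% of all genes. The median was 0.45 and stayed between 0.43 and 0.55 under every alternative run. Median diet responses were 0.50 with the WT label and 1.02 with the LASS2-/- label. Hmgcs1, the synthase at the head of the mevalonate pathway, had 12.18 on WT chow, 11.91 on LASS2-/- chow, 13.80 on WT HFD and 14.34 on LASS2-/- HFD. It was higher on HFD with either label, by 1.62 and 2.43, and the difference of 0.81 had the same sign in 4 of 4 probe sets. Sqle, squalene epoxidase, had 9.77, 9.87, 10.41 and 11.44 (difference 0.93), and Fdps, farnesyl diphosphate synthase, had 12.68, 12.55, 12.67 and 13.30 (difference 0.75). In Fdps only the array labelled LASS2-/- HFD stood apart. Dhcr7, which completes cholesterol from its last precursor, had 10.08, 9.30, 10.79 and 11.51 (difference 1.5), and Mvk, mevalonate kinase, had 8.06, 7.23, 7.83 and 8.75 (difference 1.75). In these 2 genes the array labelled LASS2-/- chow was the lowest of the 4 and LASS2-/- HFD the highest. The labels were -0.78 and -0.83 apart on chow and 0.72 and 0.92 on HFD. Fdft1, squalene synthase, had 0.61, and the exceptions below 0 were Srebf2 (-0.41) and Idi1 (-0.08), named after their values were seen.

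The sterol regulatory element was searched as TCACNCCAC on both strands, again counting windows for all genes and genes for the list. It was found in 408 of 32851 windows (1.24%), and for 1 of the 15 list members with a window, Hmgcs1 (chr13:119690184-119690273, plus strand), which is shown with the match in capitals.
Hmgcs1: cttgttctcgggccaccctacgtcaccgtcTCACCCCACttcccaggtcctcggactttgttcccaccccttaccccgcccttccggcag
The match lies on the plus orientation of the gene.

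Srebf1, the SREBP that drives fatty acid synthesis, had 12.97 on WT chow, 11.21 on LASS2-/- chow, 13.22 on WT HFD and 12.66 on LASS2-/- HFD. The array labelled LASS2-/- chow was the low one, and the difference was 1.19. Of 18 measured genes of de novo lipogenesis, 2 were past 2-fold upwards and 0 downwards, against 2.23% and 2.08% of all genes. The list median was 0.16.

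Immediate early genes differed in the opposite direction, and for the leading ones through the chow arrays. They are switched on within minutes of growth factor, stress or feeding signals. Of 18 measured members, 3 were past 2-fold downwards and 0 upwards, against 2.08% and 2.23% of all genes. The median was -0.36 and stayed between -0.38 and -0.26 under every alternative run. Egr1, a zinc-finger transcription factor, had 10.35 on WT chow, 13.24 on LASS2-/- chow, 10.51 on WT HFD and 10.62 on LASS2-/- HFD. Btg2, an antiproliferative factor, had 9.50, 12.00, 9.79 and 9.76. In both genes the array labelled LASS2-/- chow stood alone and the other 3 lay within 0.29 of each other, giving differences of -2.78 and -2.53. Egr2 had signals above the floor on LASS2-/- chow (7.72) and LASS2-/- HFD (6.58) only, so its value has no bound. Fos had 8.30, 8.92, 8.62 and 8.28 (difference -0.96) and Dusp1, a MAP kinase phosphatase, had 12.39, 12.69, 12.25 and 11.80 (difference -0.75). Myc went the other way, with 9.89, 10.35, 7.66 and 8.87 and a difference of 0.75.

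Dnajb1 and Igfbp1 were also highest on the same chow array. These and G6pc come from the brightest of the 4 bins of genes, where 9 were past 2-fold upwards and 10 downwards, and were named after their values were seen. Dnajb1, a cochaperone of heat shock proteins, had 11.40 on WT chow, 13.12 on LASS2-/- chow, 11.03 on WT HFD and 11.39 on LASS2-/- HFD (difference -1.36). Igfbp1, an insulin-repressed binding protein of insulin-like growth factors, had 13.73, 14.95, 13.12 and 13.27 (difference -1.08). G6pc, the catalytic subunit of glucose-6-phosphatase, had 13.68, 14.28, 13.46 and 13.03 (difference -1.02), highest on LASS2-/- chow and lowest on LASS2-/- HFD, with the labels 0.59 apart on chow and -0.43 on HFD. Fgf21, a fasting hormone of liver, had 7.44, 8.74, 8.78 and 8.52 (difference -1.55), with WT chow alone low. Pdk4, the pyruvate dehydrogenase kinase of fasting, had 9.98, 11.64, 8.84 and 9.67 (difference -0.82), with LASS2-/- chow high. Of 21 measured genes of mitochondrial fatty acid oxidation and fasting, 1 lay above 0, against 49.0% of all genes. Downwards 1 was past 2-fold, against 2.08% of all genes, and the list median was -0.17. The median diet response of the list was 0.28 with the WT label and 0.06 with the LASS2-/- label.

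Genes of the integrated stress response, which ATF4 induces when amino acids are short or protein folding fails, had the lowest median of the 13 described lists, -0.42, between -0.43 and -0.32 under every alternative run. Of 21 measured members 3 were past 2-fold downwards and 0 upwards, against 2.08% and 2.23% of all genes, and 14 lay below 0. The members past 2-fold, Asns, Nupr1 and Sesn2, were dim. In the 2 dimmest bins 8.0% and 6.85% of genes were past 2-fold either way. Of the 21 members, 16 were above the floor on all 4 arrays. Median diet responses were 0.23 with the WT label and -0.06 with the LASS2-/- label. Asns, asparagine synthetase, was above the floor on LASS2-/- chow (7.61) and WT HFD (6.65) only, and its difference was -1.89 or lower. Ddit3, which encodes the transcription factor CHOP, had 8.49, 9.59, 8.87 and 9.02 (difference -0.95), although 1 of its 2 probe sets had the other sign. Nupr1 had 6.37, 6.82, 7.55 and 6.87 (difference -1.13), and Sesn2 7.56, 8.09, 8.31 and 7.81 (difference -1.02). Asns and Ddit3 were highest on LASS2-/- chow, Nupr1 and Sesn2 on WT HFD. Atf4 itself, named after its value was seen, had 0.03.

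Socs2 and Cish kept more of their chow signal on HFD with the LASS2-/- label. They are feedback inhibitors that STAT5 induces after growth hormone binds its receptor. Socs2 had log2 signals of 12.90 on WT chow, 12.93 on LASS2-/- chow, 9.01 on WT HFD and 11.28 on LASS2-/- HFD. The chow arrays were alike, and both HFD arrays were lower, with a diet response of -3.89 with the WT label and of -1.65 with the LASS2-/- label, a diet-by-genotype difference of 2.24. The sign was shared by 4 of 5 probe sets, and with the mean of all of them the difference was 1.42. Cish had 10.82, 10.83, 8.31 and 9.67, the same order of arrays, and a difference of 1.35. Igfals, the carrier subunit of circulating insulin-like growth factor, had 0.87, and Stat5b had 1.09 from signals of 9.33, 8.52, 9.13 and 9.42. Stat5a (-1.10) and Igfbp1 were past 2-fold downwards. Of 13 members, 3 were past 2-fold upwards and 2 downwards, against 2.23% and 2.08% of all genes, and the median was 0.23. Igf1 (0.23) and the receptor Ghr (0.05), named after their values were seen, had small values.

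Hsd3b5, a steroid enzyme of male liver that depends on growth hormone pulses, had 13.24 on WT chow, 12.61 on LASS2-/- chow, 7.37 on WT HFD and 8.23 on LASS2-/- HFD, a difference of 1.49. The pseudogene Serpina4-ps1, of the serpin list, had 14.30, 14.55, 10.29 and 12.51 (difference 1.97). Both were far lower on the HFD arrays, less so with the LASS2-/- label, but the list of 16 male-biased genes had a median of -0.05 with 1 past 2-fold upwards. Female-biased genes differed downwards, with 3 of 12 past 2-fold downwards and 1 upwards, against 2.08% and 2.23% of all genes. Of the 12 members, 4 lay above 0, against 49.0% of all genes, and 8 were above the floor on all 4 arrays. The list median was -0.37, and -0.70 over members above the floor on the 4 arrays. Cyp2b9, a cytochrome P450 of female liver, had 7.97, 7.72, 11.82 and 10.63, and Abcd2, a peroxisomal transporter, 7.51, 8.59, 9.95 and 10.01. Diet responses were thus smaller with the LASS2-/- label in both, by 0.94 and 1.02. Cyp2b13 was at the floor on both chow arrays and had 9.0 on WT HFD and 6.95 on LASS2-/- HFD, so the HFD arrays were 2.04 apart. It is counted among the 3 past 2-fold downwards, but its diet-by-genotype difference has no bound. Hao2, the member past 2-fold upwards, had 8.04, the floor of 6.28, 9.35 and 8.77.

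Cyp2c39, a cytochrome P450 of the Cyp2c cluster, had the largest diet-by-genotype difference of the genes named by the rule. Its log2 signals were 10.39 on WT chow, 10.11 on LASS2-/- chow, 7.86 on WT HFD and 10.75 on LASS2-/- HFD. Only the array labelled WT HFD was low. The diet response was -2.52 with the WT label and 0.64 with the LASS2-/- label, opposite in direction, and the difference was 3.16. The gene has near-identical neighbours whose transcripts its probe set may also read. The list of Cyp2c cytochromes did not share the pattern and had a median of 0.02. Of 10 measured members 1 was past 2-fold upwards and 0 downwards, against 2.23% and 2.08% of all genes.

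Of the lipid droplet genes, 2 of 17 were past 2-fold upwards and 2 downwards, against 2.23% and 2.08% of all genes. The list median was -0.10. Fitm1, which partitions triglyceride into droplets, had 10.00, 9.16, 11.44 and 11.71 (difference 1.11), and Plin4, a perilipin, had 8.19, 8.76, 10.93 and 10.41 (difference -1.09). Both were higher on the HFD arrays with either label. Cidea, a droplet fusion protein, was 4.95 or more higher on HFD with the WT label and 5.53 with LASS2-/-, a difference of at most 0.58. Hilpda, an inhibitor of droplet lipase, had -1.11 from 7.82, 9.44, 7.02 and 7.53, and the lipase-like Pnpla3 had 1.34.

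B and plasma cell genes gave 2 of 8 members past 2-fold downwards and 0 upwards, against 2.08% and 2.23% of all genes. Their median was 0.10, with 5 of the 8 above 0. Ighm, the immunoglobulin mu chain, had 10.96 on WT chow, 10.95 on LASS2-/- chow, 12.41 on WT HFD and 10.87 on LASS2-/- HFD. The array labelled WT HFD stood alone, and the difference of -1.52 had the same sign in 5 of 5 probe sets. Jchain, the joining chain of secreted immunoglobulin, had 8.28, 8.47, 9.73 and 8.43 (difference -1.5), with the same array high. Among the members above 0, Cd22 had 0.33, Mzb1 0.23 and Cd79b, which was at the floor on both chow arrays, 0.21. T and NK cell markers had 2 of 10 past 2-fold downwards, against 2.08% of all genes, and a median of -0.16, from signals near the floor. Of 17 p53 targets 1 was past 2-fold upwards and 3 downwards, against 2.23% and 2.08% of all genes, with a list median of 0.18. Among these targets Sesn1 had 1.10 and Gadd45b -1.40, and Btg2 and Sesn2 were described above. The medians of the B cell, T cell and p53 lists, and of the lipid droplet list, changed sign under at least 1 alternative.

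The retinoic acid hydroxylase Cyp26b1 had 7.23, 8.34, 7.62 and 6.44, with LASS2-/- chow high and LASS2-/- HFD low, and a difference of -2.30. Ciart, a repressor of the circadian clock, had 7.32, 8.11, 9.67 and 8.24 (difference -2.21), with WT HFD high. The clock list of 19 genes had a median of -0.09 and 1 member past 2-fold each way, against 2.23% upwards and 2.08% downwards of all genes. Per2 (-0.05) and Dbp (0.16), named after their values were seen, were near 0. Mme, the membrane peptidase neprilysin, had 10.98, 9.65, 9.24 and 10.08, with WT chow high (difference 2.17), and Ccn1, a matricellular protein, had 8.82, 6.86, 8.42 and 8.71, with LASS2-/- chow low (difference 2.26). In Ccn1 4 of 4 probe sets had the same sign, but without the probe sets ending in _x_at or _s_at the value was 0.17.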

How the data were processed

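Total RNA of 4 liver samples, 1 per group, was hybridised to Affymetrix 3' expression arrays. The authors deposited a log2 signal for every probe set on every array, made with MAS5 per the submitters' processing notes. Its version and scaling target are not given in these sources, and detection calls were not used here. No further scaling was applied. Of 45037 probe sets, 34945 had 1 gene symbol in the platform annotation, 932 several and 9160 were not named here. Probe sets at or above the array median on at least 1 array were kept, and a gene was represented by its kept probe set of highest mean signal. Values under an array's median were set to it. The number of arrays limits the precision.

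The diet-by-genotype difference uses up 1 array for each of its 4 terms and leaves no residual degree of freedom, so counts past 2-fold and list medians were described without a test. Named genes were Cers2, the 15 genes per direction of largest size among those measured or bounded away from 0, up to 8 opposite responders per direction, up to 8 genes above or under the floor only on LASS2-/- HFD, and up to 6 members per described list and 2 per other list. Not all of these are printed; genes outside the rule are said to be so. Members and lists were chosen with earlier results of these data known. The 77 lists hold 1357 symbols, of which 1216 were matched and 1140 measured; the rest were not analysed here. The calculation was tested on simulated arrays. Alternatives were quantile normalization, equal array medians, a lower floor (25th percentile), no floor, genes above the floor on all 4 arrays, the mean of all probe sets, dropping the _x_at and _s_at probe sets, and a 1.5-fold threshold. Values were computed with pandas 2.3.3 and numpy 2.4.6 in Python 3.11.15, and drawn with matplotlib 3.10.9. Promoter sequences are from RefSeq, GRCm38.p6.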

Additional observations from a re-analysis of the deposited data

Results flagged for a closer look

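Genes whose diet response had opposite directions in the 2 genotypes were singled out. In these the HFD array lay above the chow array with one label and below it with the other. With 1 array per group that difference was not tested. There were 58 such genes, with at least 1.5-fold in each genotype. Of those named by rule, Cyp2c39 (3.16), Gpx2 (2.92), Tatdn1 (2.78), Arhgef25 (2.61), Serpinb1a (2.24), Rgs9 (2.14), H2-Q5 (2.12), Nos1ap (1.97) and the B cell chemokine Cxcl13 (1.84) were higher on HFD with the LASS2-/- label and lower with the WT label, the value in brackets being the diet-by-genotype difference in log2. Arhgef40 (-2.59), Rap1gap (-2.27), Sct (-2.19), Hand1 (-2.16), Tcea2 (-2.13), Efcab2 (-1.95), Sez6 (-1.93), Nfkb2 (-1.89), Kdm2b (-1.83), Nckipsd (-1.81) and the bile acid responsive repressor Nr0b2 (-1.51) went the reverse way. Gpx2, Arhgef25, Serpinb1a, Nos1ap, Arhgef40, Sct, Hand1 and Nfkb2 were under the floor on at least 1 array. Only 2 of 4 probe sets of Tatdn1 and 1 of 3 of Arhgef25 had the stated sign, and the mean of all probe sets gave 0.31 and 0.16.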

How the results depend on the processing

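A lower floor, at each array's 25th percentile, let in 16898 genes: 1155 genes were past 2-fold upwards and 1771 downwards, and the diet response was larger with the LASS2-/- label in 1300, smaller in 976 and opposite in 650. With no floor on the same 12493 genes the counts were 741 and 809, and 685, 508 and 357. With a 1.5-fold threshold they were 963 and 991, with 1130 larger and 766 smaller. Over the 10111 genes above the floor on all 4 arrays, 199 were past 2-fold upwards, 164 downwards and 31 opposite. The counts of genes past 2-fold therefore depend on the floor, and the excess of upward over downward differences did not hold with the lower floor, without a floor or at 1.5-fold, while it held above the floor on all 4 arrays and with equal medians (381 and 192). The median of all genes moved from -0.01 to 0.09 with equal medians. The female-biased list had a median of -0.70 both above the floor on all 4 arrays and without _x_at and _s_at probe sets. Signs turned for Mmp12 (-0.048 with the lower floor, -1.283 without a floor), Timp1 (-0.018 in both), Ccl2 (-1.11 without a floor) and Col6a2 (-0.12 with the mean of probe sets, -0.36 without _x_at and _s_at probe sets); the cause was not tested. No paired analysis was possible because each group has 1 array, the labels carry no replicate numbers and the result comes from no test; for the same reason no array could be left out.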

Other observations

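In the brightest of the 4 signal bins, where the differences scatter least, further genes past 2-fold included the apolipoprotein Apoa4 (-1.24), the omega-hydroxylase Cyp4a14 (-1.04) and the water channel Aqp8 (1.02). Others were the methyltransferase Nnmt (1.38), the organic anion transporter Slco1a4 (-1.26), Depp1 (-1.40) and Phlda1 (1.65). Apoa4 and Cyp4a14 had a diet response of 1.46 each with the WT label and of 0.22 and 0.43 with the LASS2-/- label. Nnmt had log2 signals of 11.79 on WT chow, 12.54 on LASS2-/- chow, 9.90 on WT HFD and 12.03 on LASS2-/- HFD, so that the array labelled WT HFD alone was low. Phlda1 was lower on the HFD arrays by 2.79 with the WT label and by 1.15 with the LASS2-/- label. These genes were chosen after their values were seen.

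Genes above the floor on the array labelled LASS2-/- HFD alone numbered 252, against 225, 329 and 216 for WT chow, LASS2-/- chow and WT HFD alone. They included the monocyte chemokine Ccl2 (7.58) and Spic (7.28), a transcription factor of red pulp macrophages, each with at least 2-fold higher signal than the WT HFD floor. Since the other arrays lie under the floor, these genes have no bound on their diet-by-genotype difference, and without a floor Ccl2 had -1.11.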
